A study of Mus musculus with 192 samples.

Results

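The proteasome and ubiquitin enzyme genes are the genes whose symbol begins with Psm and a letter from a to g, Ube2, Uba or Usp, with the family number after it; Usp29 was left out. The value table held 204 rows for 107 such symbols. A row was used if at least 80% of arrays in every dataset had a value for it, and rows of 1 symbol were averaged, which left 104 of 15608 genes tested: 44 Psm genes, 28 Uba or Ube2 genes and 32 Usp genes. Of the 15608, 8447 had a gene symbol. The rest were single rows without 1 usable symbol, each counted as a gene in all shares given for all genes. The 3 lost symbols were Ube2z, Usp30 and Usp36, whose best row was measured on at most 47.1%, 50% and 76.5% of the arrays of its thinnest dataset. The members just inside the limit were Usp19 at 81.5% and Ube2ql1 at 88.2%. Apart from this filter, members were found by name and not by a measured value. The rule for names was set with earlier results of these data known.

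The study cut mouse brain tissue into small cubes, called voxels, and hybridised RNA of 1 voxel position per array on 2-colour arrays beside RNA of whole mouse brain. All voxels came from C57BL/6 male mice at postnatal day 56 with no treatment named, and the labels describe them as pooled. Each of the 68 positions is named by a letter from A to G for its grid row and a number from 1 to 11 for its column, without anatomical directions. The arrays form 3 harvests, called datasets here, of 59, 68 and 65, with voxel RNA in Cy3 in datasets 1 and 3 and in Cy5 in dataset 2, so that dye and dataset cannot be told apart. Of the 68 positions, 56 have an array in all 3 datasets and 12 in 2. Means of a grid row or zone therefore cover partly unlike positions in different datasets.

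Cells mark proteins for destruction by attaching ubiquitin in a relay: an E1 enzyme activates it, an E2 enzyme carries it and an E3 ligase chooses the substrate. The 26S proteasome then degrades the marked protein in the 20S core, a stack of rings of alpha and beta subunits, after the 19S cap has bound, unfolded and threaded it in, while ubiquitin-specific proteases (USPs) remove or trim the chains. In neurons this system turns over synaptic proteins, and most of its genes are expressed in every cell.

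By role the members were 7 alpha and 7 beta subunits of the 20S core, 3 interferon-induced or thymic beta subunits (Psmb8, Psmb9, Psmb11), 4 ATPases and 11 other subunits of the 19S cap, 3 activators (Psme1, Psme3, Psme4), 7 assembly chaperones, 2 E1 enzymes (Uba3, which activates the ubiquitin-like NEDD8, and Uba6), 26 E2 enzymes and 32 USPs. A further 2, Psmc3ip and Psme3ip1, match by name but are partners of a proteasome gene rather than proteasome subunits. Every value is a centred log2 ratio: a gene's value is set relative to its own median over all arrays, so positions can be compared but genes cannot. Positive values are likely to mean more RNA in the voxel, although the labels do not name the numerator. In such tissue samples fewer cells of a type and less RNA per cell cannot be told apart.

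Among genes that mark brain cell types, 6 of 7 measured striatal, 6 of 6 cortical and 3 of 4 myelin markers differed among positions. The lists of microglial, pan-neuronal and blood markers had only 2 measured genes each. Between 0.326% and 41.5% of an array's values were missing or at the floor, and arrays, unlike sequencing, give no depth. The number of arrays limits the precision.

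Promoters of 3 members on which the results turn are shown first: Psme1 and Ube2l3, which differed among positions and had a sequence, and Psmb6, a 20S subunit that lay low at the grid's perimeter. Each is a window from 250 bases before to 50 bases after a start site in RefSeq on GRCm38.p6, written 5′ to 3′ on the gene's strand. For Psmb6 and Ube2l3 that site lies a little inside the outermost start of the RefSeq gene, and distances are counted from the window's own start site. Capitals mark 1 motif match in each. In Psme1 (chr14:55578244-55578543, plus strand) they mark the core of the interferon-stimulated response element (GAAA, any 2 bases, GAAA), read on the reverse strand. In Ube2l3 (chr16:17201443-17201742, minus strand) they mark CCAAT, also on the reverse strand and 180 bases before that site. In Psmb6 (chr11:70525107-70525406, plus strand) they mark TGACNNNGC, the core of the antioxidant response element, 9 bases before that site.
Psme1: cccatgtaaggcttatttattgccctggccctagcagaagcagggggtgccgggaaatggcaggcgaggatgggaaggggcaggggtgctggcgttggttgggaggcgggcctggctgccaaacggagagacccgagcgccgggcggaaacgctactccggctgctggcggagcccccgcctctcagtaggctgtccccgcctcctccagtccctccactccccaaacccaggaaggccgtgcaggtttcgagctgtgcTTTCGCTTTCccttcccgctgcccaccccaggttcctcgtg
Ube2l3: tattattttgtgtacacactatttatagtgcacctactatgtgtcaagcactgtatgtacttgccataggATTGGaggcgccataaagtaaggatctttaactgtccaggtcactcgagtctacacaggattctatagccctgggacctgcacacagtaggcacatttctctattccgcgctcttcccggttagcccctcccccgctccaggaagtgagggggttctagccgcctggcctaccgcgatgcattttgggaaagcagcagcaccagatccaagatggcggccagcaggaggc
Psmb6: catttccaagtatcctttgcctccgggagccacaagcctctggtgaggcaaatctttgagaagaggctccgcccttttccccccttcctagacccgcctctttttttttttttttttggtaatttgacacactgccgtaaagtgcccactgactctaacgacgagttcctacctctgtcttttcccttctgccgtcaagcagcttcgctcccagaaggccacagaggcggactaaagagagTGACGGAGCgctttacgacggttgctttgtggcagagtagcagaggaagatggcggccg
RefSeq windows were found for 81 of the 104 members, 92 windows in all. Searched on both strands, TGACNNNGC occurred in 15 of the 92 member windows (16.3%) and in 12.4% of all 32851 windows. For CCAAT the shares were 25 of 92 (27.2%) against 37.4%. The interferon-stimulated core, which was added after the values were seen, occurred in 5 of 92 (5.43%) against 3.44%. Within the 25 windows of 20S and 19S subunits, 3 held TGACNNNGC, 10 held CCAAT and 2 held the interferon-stimulated core. A match is a run of letters and not a measured binding site.

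Few of the members differed across the 68 positions. With limma's moderated F test, which carries the dataset as a block, 3 of 104 members (2.88%) differed among positions at an adjusted p under 0.05: Psme1, Ube2l3 and Ube2w. The background over all genes tested was 4.92%, so the share of members is no higher than that of genes at large. At an unadjusted p under 0.05 there were 12 members, against 13.3% of all genes. The median F was 1.03 for the members and 1.04 for all genes, and the median range of position means was 1.32 and 1.58 on the log2 scale. These ranges are not alike in noise, because 57 of the 104 members were averages of several rows, against 2904 of all 15608 genes. Only the 8447 genes with a symbol could be averages. The 3 genes are an activator of the core and a pair of E2 enzymes. No 20S or 19S subunit, assembly chaperone, E1 enzyme or USP passed. Without dataset 1 the sole pass was Psmg2 (1.99% of all genes passed), without dataset 2 there were 0 (1.34%), and without dataset 3 there were 2, Psme1 and Usp7 (3.35%). Quantile normalization gave 6 (7.48% of all genes) and array weights 14 (16% of all genes).

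**Figure D1:**
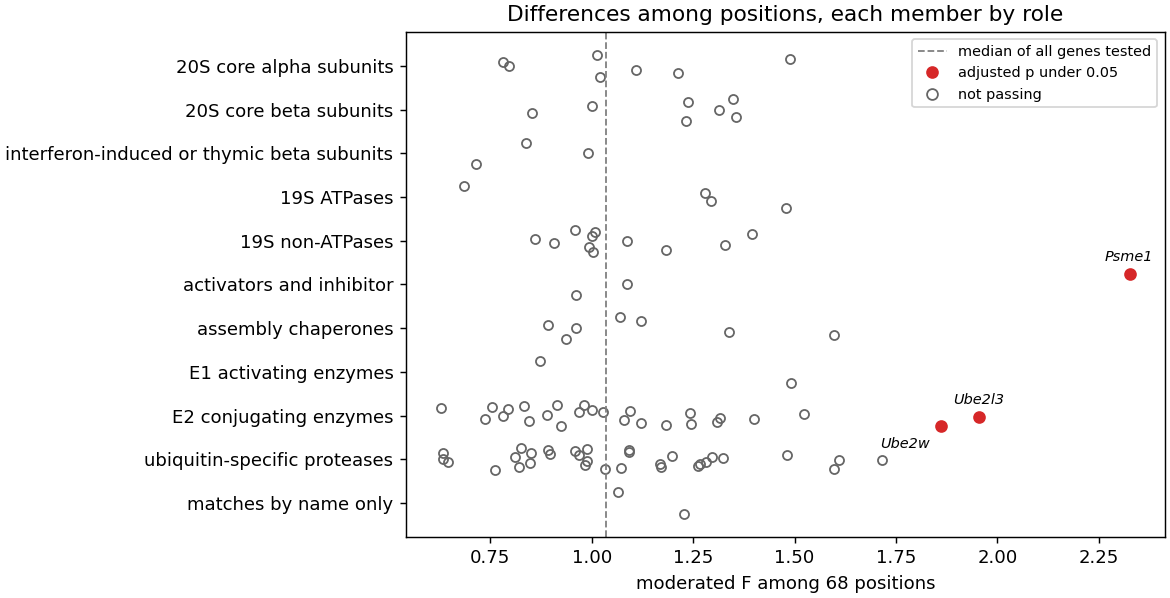
Each point is 1 of the 104 members, placed by its moderated F among 68 positions (horizontal axis, no unit) within its role (vertical axis); the dashed line is the median of all genes tested, 1.04. Filled points are the 3 members with an adjusted p under 0.05, at F of 2.33 (Psme1), 1.95 (Ube2l3) and 1.86 (Ube2w), to the right of all open points.

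Psme1 encodes an alpha subunit of the 11S activator PA28, a ring that opens the 20S core without the 19S cap and is induced by interferon gamma. It had the largest F of the members, 2.33 (limma, adjusted p = 0.00116), and of 14 alternatives it passed in all but those without dataset 1 (adjusted p = 0.211) and without dataset 2 (0.814). Its highest means lay in grid rows A and B: B8 at 1.40 ± 1.27 (SD, n = 3 datasets; 2.84, 0.89 and 0.46), A9 at 1.02 ± 0.30 (1.34, 0.97 and 0.74) and B7 at 0.98 ± 0.84. The datasets agreed on the direction at B8 and A9 but differed in size, most of all at B8. G9, with a mean of 0.96 ± 1.97, was high in dataset 3 alone (3.23, against -0.21 and -0.14). The lowest position was G3 at -0.82 ± 0.12 (-0.71, -0.81 and -0.95), where the datasets lay close together. By grid row the mean was 0.61 ± 0.17 in A and 0.65 ± 0.46 in B, then 0.20 ± 0.13 in C. Rows D to G had means between -0.18 and -0.05, with standard deviations from 0.02 in E to 0.37 in G. Rows A and B were the highest in the mean, although row G of dataset 3, at 0.37, lay above row B of that dataset, at 0.23. Dataset 1 lacks arrays at several positions of rows A and B, so its means there cover fewer positions. The order of A and B does not exceed their spread, nor does that among D to G. The maps of Psme1 in the 3 pairs of datasets correlated at 0.545, 0.153 and 0.285 (Pearson, over 59, 56 and 65 shared positions, as a description). Its 2 rows on the array correlated at 0.468 and, tested alone, had F of 2.34 (adjusted p = 0.00103) and 1.71 (adjusted p = 0.0876, limma).

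The position maps of other cell markers ran beside that of Psme1. Against the mean of 6 cortical markers its map had a mean Spearman rho of -0.463 over 6 pairs of different datasets (-0.596 to -0.307). Against 3 hypothalamic markers the mean rho was 0.383 (0.156 to 0.623). Against the 2 measured microglial markers, which mark the cells with much of the brain's immune gene expression, it was -0.0191. Neither of these markers itself differed among positions (limma, adjusted p = 0.79 for C1qa and 0.965 for C1qb). That rho therefore had no called position pattern to follow and cannot place Psme1 with or apart from them. At the 5 positions highest in Psme1 the cortical markers had a mean of -0.78, and at the 5 lowest a mean of 0.74. Their part in the result was not tested. Interferon-induced catalytic subunits replace standard ones in the immunoproteasome. Of these, Psmb8 had F of 0.99 (adjusted p = 0.882) and Psmb9 0.714 (adjusted p = 0.984), so neither passed the limma test that Psme1 passed. Their highest positions also lay in row B, at B7 (1.56 ± 1.55, n = 3) and B9 (2.13 ± 1.39, n = 2). Their maps in pairs of datasets correlated at -0.119, 0.203 and -0.262 for Psmb8 and -0.0707, -0.302 and -0.0831 for Psmb9. The SD left after position and dataset was 0.946 for Psmb8 and 1.07 for Psmb9, against 0.485 for Psme1. The other activators measured, Psme3 (PA28 gamma, found in nuclei) and Psme4 (PA200), had F of 1.09 and 0.961.

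**Figure D2:**
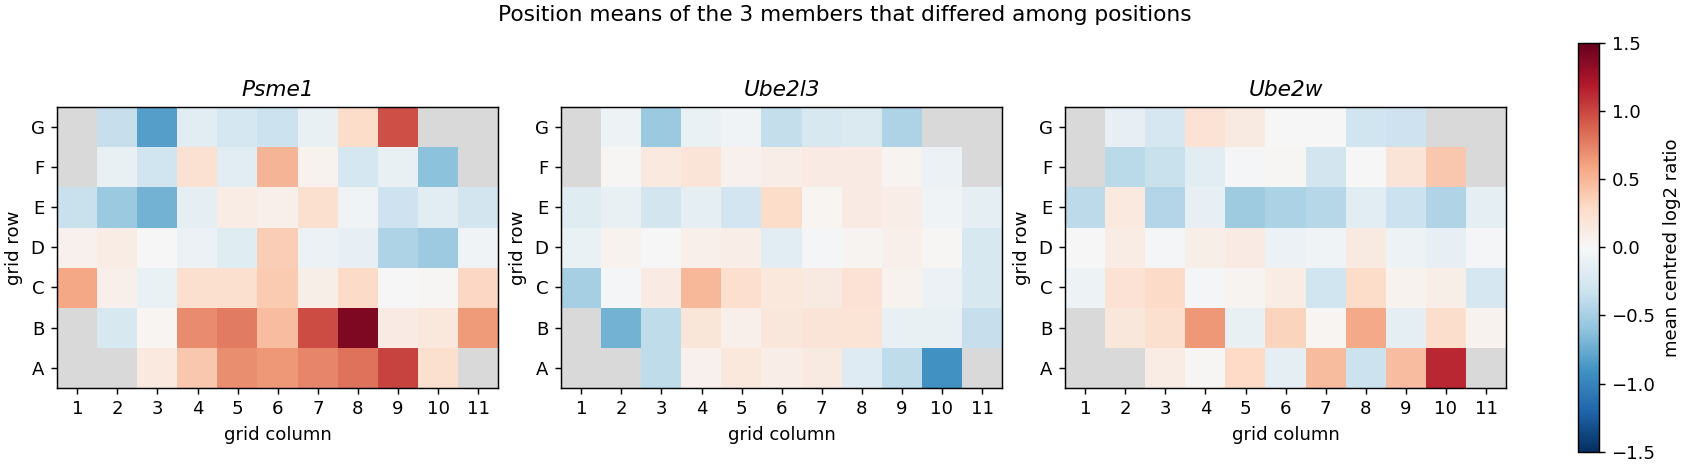
Grid maps of Psme1, Ube2l3 and Ube2w, with the grid row on the vertical and the grid column on the horizontal axis; colour gives the mean centred log2 ratio over 2 or 3 datasets and grey squares are not among the 68 positions. Psme1 is high in rows A and B, and A10 is the lowest position for Ube2l3 (-0.91) and the highest for Ube2w (1.13).

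Ube2l3 encodes UbcH7, an E2 enzyme that passes ubiquitin to HECT and RING-between-RING ligases such as parkin. It had F of 1.95 (limma, adjusted p = 0.0172). The call was lost in 7 of 14 alternatives: with floor values kept (adjusted p = 0.113), with 1 row per gene (0.17), without the replicate block (0.693), without A10 (0.0778) and without any 1 dataset (0.25 to 0.665). The highest position was C4 at 0.49 ± 0.20 (0.63, 0.59 and 0.27), followed by E6 at 0.27 and C5 at 0.25. The lowest were A10 at -0.91 ± 0.09 (n = 2; -0.85 and -0.97), B2 at -0.71 ± 0.03 (n = 2), G3 at -0.56 and C1 at -0.50. Low positions thus lay at the grid's edge, and high ones inside it. By grid row the means ran from -0.31 ± 0.39 in G to 0.08 ± 0.17 in F, and no row stood beyond the spread of the datasets. The maps of the dataset pairs correlated at 0.260, 0.393 and 0.227. The gene has 4 rows on the array, which correlated with each other at 0.193 to 0.525, and none of them passed alone (F from 1.25 to 1.60). Against 4 myelin markers the mean rho of the Ube2l3 map was 0.384 (0.278 to 0.576 over 6 dataset pairs), and against the cortical markers it was -0.250. Against 3 astrocyte markers it was 0.259 and against 2 thalamic markers 0.238. The 5 highest positions had a myelin mean of 0.56 and the 5 lowest of -0.81. For thalamic markers these means were 1.24 and -0.26, for astrocyte markers 0.33 and -0.30, and for cortical markers -0.88 and 0.08. The part of these markers in the result was not tested.

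Ube2w, an E2 enzyme that attaches ubiquitin to the amino end of a protein, had F of 1.86 (limma, adjusted p = 0.0319) from a single row of the array. The call was lost in 6 of 14 alternatives: without centring of arrays (adjusted p = 0.142), without the replicate block (1), without A10 (0.246) and without any 1 dataset (0.189 to 0.812). It was highest at A10, at 1.13 ± 0.65 (n = 2; 1.58 and 0.67), then at B4 (0.65 ± 0.30, n = 2) and B8 (0.57 ± 0.61). It was lowest at E5 (-0.53 ± 0.58) and E6 (-0.48 ± 0.09). Grid rows A and B had means of 0.26 ± 0.21 and 0.28 ± 0.45 and row E of -0.29 ± 0.30, with datasets that overlap. Its map ran with the hypothalamic markers at a mean rho of 0.264 and with the cortical markers at -0.203. Without position A10 Psme1 alone of the members passed (F = 2.36, adjusted p = 0.00103, limma); Ube2l3 and Ube2w did not.

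**Figure D3:**
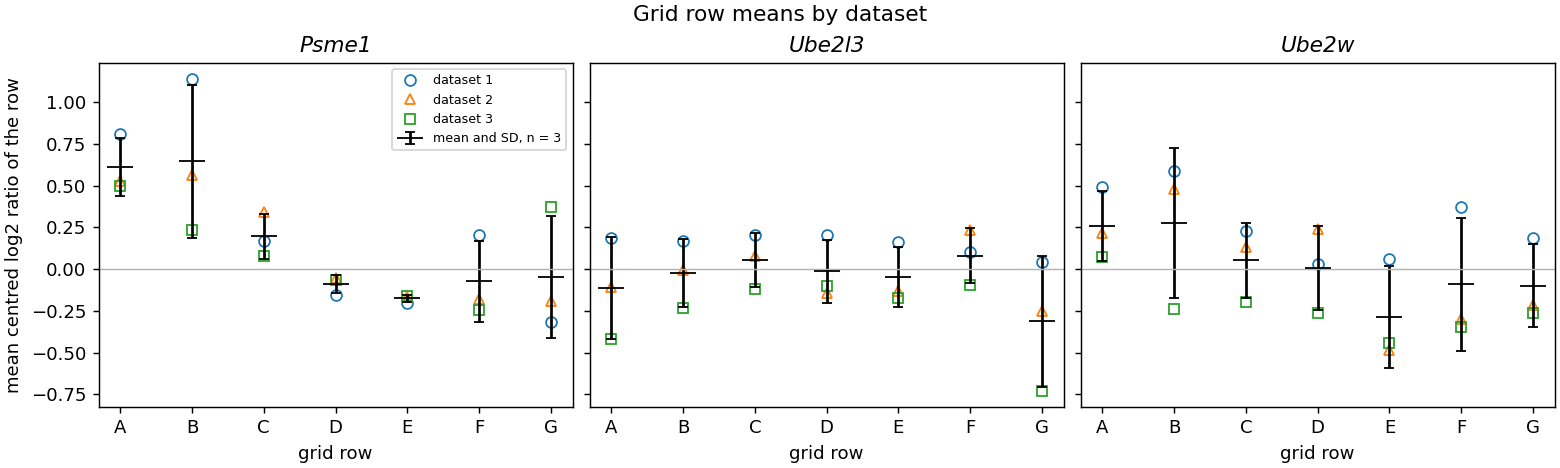
Mean centred log2 ratio (vertical axis) of each grid row (horizontal axis) for Psme1, Ube2l3 and Ube2w; symbols are the 3 datasets and bars the mean and SD (n = 3). In Psme1 rows A and B, at 0.61 and 0.65, lie above rows D to G in the mean, and the rows of Ube2l3 and Ube2w overlap between datasets.

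In every role other than activators and E2 enzymes, the members with the smallest p did not pass, although some did under an alternative. Usp35 (F = 1.61), Usp7 (1.60) and Ube2j1 (1.52) ranked above several of them and did not pass either (adjusted p = 0.151, 0.159 and 0.232, limma). Usp35 passed with array weights (adjusted p = 0.0307) and Usp7 without dataset 3 (0.0315). Ube2j1 passed with quantile normalization (0.0221) and array weights (0.017, all limma). Usp37, a USP known from the cell cycle, had F of 1.71 (adjusted p = 0.0842), and its highest position, F7, had a mean of 1.21 ± 2.15. It passed with quantile normalization (adjusted p = 0.0142), array weights (0.0169) and values limited to within 3 of 0 (0.0408). Psmg3, a chaperone of 20S assembly, had F of 1.60 (adjusted p = 0.16; 0.0408 with array weights), with A10 at -2.35 ± 0.48 and F4 at 1.49 ± 1.36. Uba6, an E1 enzyme for ubiquitin, had F of 1.49 (adjusted p = 0.268). Psma2, an alpha subunit, also had 1.49 (adjusted p = 0.269; 0.0229 with array weights), from -0.51 ± 0.22 at E3 (n = 2) to 0.61 ± 0.40 at A9. Psmc5, a 19S ATPase, had F of 1.48 (adjusted p = 0.284; 1.09e-06 with array weights and 0.003 with quantile normalization), and Psmd12, a 19S scaffold subunit, 1.39 (adjusted p = 0.394). Psmb6, which carries a catalytic site, led the beta subunits with 1.36 (adjusted p = 0.453, all limma). At the low end Ube2e1, Usp34 and Usp22 had F of 0.627, 0.633 and 0.633, so that their position means differed less than the median gene's did relative to the spread between datasets.

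Grid rows A and B (18 positions) were then set against rows F and G (17 positions), with 1 difference per dataset (n = 3) in limma. Rows A and B had 11 arrays in dataset 1 and 18 in datasets 2 and 3. Rows F and G had 17 arrays in datasets 1 and 2 and 14 in dataset 3. The 3 differences thus cover unlike sets of positions. No member passed at an adjusted p under 0.05, against 0.109% of all genes; 7 passed at an unadjusted p under 0.05 (2 higher in A and B, 5 lower), against 9.03% of all genes. Psme1 had the smallest p of the members. In dataset 1 its arrays of rows A and B ran from -0.28 to 2.84 (median 0.96) and those of rows F and G from -0.95 to 1.63 (median -0.23). In dataset 2 the medians were 0.64 and -0.22, and in dataset 3 they were 0.46 and -0.22. The zones overlapped in every dataset, and in each the median of rows A and B was the higher. The mean difference was 0.69 ± 0.34 (1.00, 0.73 and 0.33), 1.61-fold, with an unadjusted p of 0.00414 and an adjusted p of 0.294 (limma). When only rows measured on every array were used, the difference was 0.89 and passed (adjusted p = 0.00475).

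Other members ranked in this comparison were Ube2w at 0.36 ± 0.23 (adjusted p = 0.504; 0.24 without dataset 2) and Psma2 at 0.29 ± 0.17 (adjusted p = 0.558) above 0. Below 0 were Psmg3 at -0.51 ± 0.11 (-0.57, -0.38 and -0.58; adjusted p = 0.300), Psmg2, another chaperone of 20S assembly, at -0.58 ± 0.40 (adjusted p = 0.41), and Usp37 at -0.30 ± 0.10 (adjusted p = 0.515, all limma). With floor values kept the difference of Psmg3 was -0.32 (adjusted p = 0.754), and without dataset 3 that of Psmg2 was -0.37. The differences of Psmg3 were the more even over datasets, although its arrays overlapped between the zones in each. Of all members 53 of 104 were above 0, with a median of 0.00 against -0.02 for all genes, of which 45.4% were above 0. Among the roles, 12 of 14 subunits of the 20S core were above 0 (median 0.05), the 7 alpha subunits included, and 1 of 4 ATPases of the 19S cap. The mean of the 14 core subunits changed sign between datasets (0.155, 0.068 and -0.043). Only 4 of the 14 were above 0 in all 3 datasets, as were 2094 of all 15608 genes, and none had an unadjusted p under 0.05 (limma). Cortical markers were above 0 in 0 of 6 (median -1.60, 4 of them called lower) and hypothalamic markers in 3 of 3 (median 0.73, 1 called higher). The spread of values within an array (median absolute deviation) was also wider in rows A and B, 0.303 ± 0.043, than in rows F and G, 0.242 ± 0.028. The part of these markers and of the spread in the members' differences was not tested.

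Columns 5 to 7 (21 positions) were compared with columns 1 to 3 and 9 to 11 (33 positions). No member passed in limma, nor did any gene (0%), and 11 members (8 higher, 3 lower) had an unadjusted p under 0.05, against 13.2% of all genes. Psmd5, a chaperone of the 19S base, differed by 0.32 ± 0.08 in the means (adjusted p = 0.222) but by 0.13 in the zone medians. Its lowest outer-column arrays were at -4.66, -3.43 and -3.76 in datasets 1 to 3, and in dataset 3 the middle columns had the lower median (-0.11 against -0.05). Psma6, an alpha subunit, differed by 0.30 ± 0.10 (adjusted p = 0.247; 0.18 in the zone medians), and Psme1 by 0.29 ± 0.16 (adjusted p = 0.281). The values of Psme3ip1 (-0.51 ± 0.33, adjusted p = 0.249), Ube2ql1 (-0.24 ± 0.10, adjusted p = 0.29) and Usp25 (-0.21 ± 0.13, adjusted p = 0.341) were below 0. With floor values kept Ube2ql1 was at -0.0030 (adjusted p = 0.997) and Psme3ip1 at -0.26. Psme3ip1 was at -0.22 with a limit of 50% of arrays for a row, -0.26 in the zone medians and -0.30 without dataset 2. Of the members 63 of 104 (60.6%) were above 0, against 49.6% of all genes, with medians of 0.02 and 0.00. Of the 20S subunits 11 of 14 were above 0, with a median of 0.09. Myelin markers were above 0 in 4 of 4 (median 0.45) and thalamic markers in 2 of 2 (median 0.85), striatal markers in 0 of 7 (median -0.71) and cortical markers in 1 of 6 (median -0.85). Their part was not tested.

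Between mirror positions of the sides, columns 1 to 5 against 7 to 11, no member and no gene passed in limma (0%). At an unadjusted p under 0.05 there were 0 members, against 3.34% of all genes. The smallest p was that of Psma6, at 0.13 ± 0.05 (adjusted p = 0.958; 0.08 in the zone medians).

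The perimeter of the grid (26 positions) was compared with its interior (42 positions). No member passed in limma at an adjusted p under 0.05; the background was 0.109%, all lower at the perimeter. At an unadjusted p under 0.05 there were 14 members (6 higher, 8 lower), against 13.4% of all genes. All 14 subunits of the 20S core were below 0 at the perimeter, from -0.43 to -0.04 with a median of -0.14, whereas 58% of all genes were above 0 (median 0.03). Of these 14, 7 were below 0 in all 3 datasets (36.7% of all genes had 1 sign in all 3, in either direction). Below 0 in all 3 were 2481 of all 15608 genes. Among the 14 core subunits, 4 had an unadjusted p under 0.05 (limma). The mean of the 14 was -0.18 ± 0.10 (-0.10, -0.14 and -0.29). None passed singly in limma, and no test was made of the group.

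The largest of these were beta subunits. Psmb7, which holds the trypsin-like site, differed by -0.43 ± 0.29 (-0.22, -0.30 and -0.76; adjusted p = 0.238, limma), and by -0.26 without dataset 3 and -0.27 in the zone medians. Psmb6, which holds the caspase-like site, differed by -0.33 ± 0.16 (-0.40, -0.14 and -0.44; adjusted p = 0.241). In dataset 1 the perimeter arrays of Psmb6 had a median of 0.11 and the interior 0.26. In dataset 3 the medians were -0.47 and 0.02, and in dataset 2 they were -0.14 and -0.04. Perimeter and interior arrays overlapped in each dataset. Psmb2 differed by -0.30 ± 0.19 (adjusted p = 0.279) and Psma6 by -0.24 ± 0.17 (adjusted p = 0.334), and Psma3 and Psmb5 lay nearest 0, at -0.04 ± 0.07 and -0.09 ± 0.24.

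The other roles were less one-sided. Of the 19S subunits 11 of 15 were below 0 (median -0.10), with Psmc2 at -0.25 ± 0.14 and Psmd14, the deubiquitinase of the cap, at -0.24 ± 0.34. Of the assembly chaperones 5 of 7 were below 0, with Psmd5 at -0.34 ± 0.21 (adjusted p = 0.252). Psmd5 was at -0.13 in the zone medians and -0.23 with quantile normalization, and in dataset 1 its perimeter median, 0.14, was above the interior's, 0.02. The 26 E2 enzymes split evenly, 13 above and 13 below 0 (median 0.01): Ube2l3 differed by -0.28 ± 0.14 (adjusted p = 0.267), Ube2t, an E2 of DNA crosslink repair, by 0.36 ± 0.22 (adjusted p = 0.242; 0.21 in the zone medians and 0.24 without dataset 3) and Ube2q2 by 0.23 ± 0.07 (adjusted p = 0.292, all limma). Of the USPs 19 of 32 were above 0 (median 0.04), near the share of all genes. Usp27x at 0.33 ± 0.30 and Usp19 at 0.31 ± 0.25 were the highest and Usp10 at -0.17 ± 0.16 the lowest. The smallest p of all members belonged to Psme3ip1, a partner of PA28 gamma and no subunit, at 0.66 ± 0.19 (0.66, 0.47 and 0.84; adjusted p = 0.0848). It passed where only rows measured on every array were used (adjusted p = 0.000957). The difference was 0.15 with floor values kept (adjusted p = 0.622), 0.18 with a limit of 50% of arrays for a row, 0.24 without dataset 2 and 0.38 with quantile normalization. In dataset 2 the perimeter median, -1.93, was not above the interior's, -1.87.

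Myelin markers were lower at the perimeter in 4 of 4, with a median difference of -0.96 and 3 of them called. Striatal markers were above 0 in 1 of 7 (median -0.32, 2 called lower), thalamic markers in 0 of 2 (median -0.77) and cortical markers in 6 of 6 (median 0.32). Their part in the 20S values was not tested. The spread of values within an array was alike in both zones, 0.279 ± 0.059 at the perimeter and 0.278 ± 0.048 inside. With rows measured on every array 8 of 8 core subunits were below 0, with 1 row per gene 11, without dataset 1 13, and without position A10 14.

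**Figure D4:**
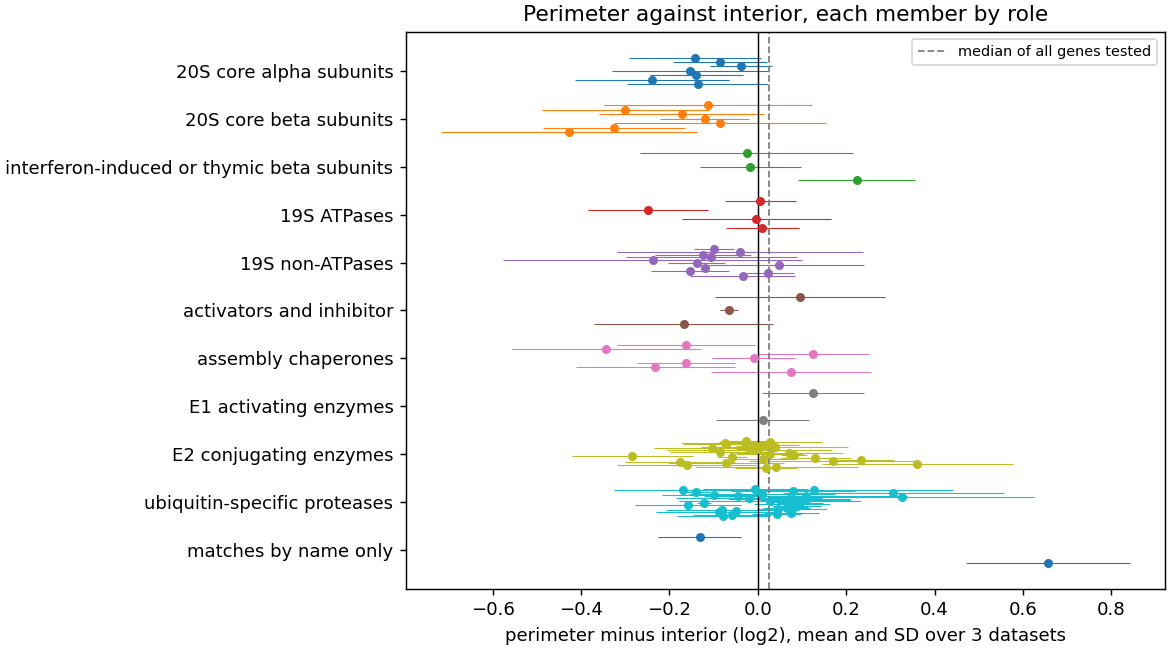
Each point is 1 member's perimeter minus interior difference (horizontal axis, log2), with bars of 1 SD over 3 datasets, grouped by role on the vertical axis. The 14 subunits of the 20S core lie between -0.43 and -0.04, while the E2 enzymes and USPs lie on both sides of 0 and no member passes limma's adjusted threshold.

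Between datasets, the maps of the 20S beta subunits resembled each other somewhat more than those of other roles did. The maps of the alpha subunits did not stand above all other roles. The mean correlation between the map of 1 core subunit in 1 dataset and that of another subunit in another dataset was 0.0477, with 0.0828 for the beta and 0.0120 for the alpha subunits. It was 0.00572 for the 19S subunits, 0.00516 for the E2 enzymes, 0.00122 for the USPs and 0.000165 for all genes. Within a dataset the mean was 0.180 for the core and 0.0136 for all genes, over the 59, 56 and 65 positions shared by pairs of datasets. In that case the genes share the RNA of the same arrays. These are weak correlations and descriptions only. The mean map of the 14 subunits was highest at C8 (0.25 ± 0.19) and lowest at A10 (-0.55 ± 0.17, n = 2), B2 (-0.36 ± 0.10) and E1 (-0.33).

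Position A10 stood apart for these genes. It was the lowest of all positions for 18 of the 104 members (17.3%), against 5.3% of all genes. There 63 members were below 0 (60.6%, median -0.17), 70 in dataset 2 and 58 in dataset 3, against 42.6% of all genes (median 0.09). Of the 20S core, 13 of 14 subunits were below 0 (median -0.55). The members lowest there included Psmg3, Psma6, Psmd13 (-0.89 ± 0.61), Psmc2 (-0.87 ± 0.12) and Psmd14 (-0.82 ± 0.37), while Ube2w was highest there. Dataset 1 has no array at A10. Positions were ranked on plain means over the datasets present, without adjustment for dataset. A gene's shift between datasets or dyes therefore enters the rank of A10 and of other positions that lack a dataset. The part of such shifts was not tested. The spread within its arrays ranked 4 of 68 in dataset 2 and 24 of 65 in dataset 3, and 4.38% and 2.30% of values were missing or at the floor; the part of array quality was not tested.

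Rows of the array that carry 1 symbol did not always follow each other. Over the 57 members with several rows the median correlation of their rows over arrays was 0.0549, near the 0.0505 of the 2904 such genes in all; 35.1% of the members and 38.8% of all were under 0. Psmc5 had the closest rows, 3 rows at a median of 0.559, and Usp8, a USP of endosomal sorting, the most opposed, 2 rows at -0.474. An average over such rows can hide a pattern of 1 of them. Tested row by row, 3 member rows passed (limma), a row each of Psme1, Ube2w and Ube2s, against 4.81% of all 19683 rows; the last, an E2 of the anaphase-promoting complex, had F of 1.12 (adjusted p = 0.77) as an average of 2 rows.

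Other genes of the pathway, from a list of 136 names with 93 measured, were set beside the members. Among positions 5 of 93 passed in limma, against 4.92% of all genes. Klhl13, a cullin 3 adaptor, had F of 4.05 (adjusted p = 1.55e-09), from -1.31 at F10 to 1.04 at C9. Rnf13, a ligase of endosomes, had F of 3.46 (adjusted p = 1.55e-07), from -1.57 at A10 to 1.01 at D4. The others were the ligase Ube3b (F = 2.26), the deubiquitinase Josd2 (2.06) and Cops2 (1.80), a subunit of the COP9 signalosome. Klhl13 was also higher in rows A and B than in F and G, by 1.31 ± 0.20 (adjusted p = 0.0442), the sole pass of the list in that comparison; none passed for columns, sides or perimeter. None of the 4 measured ubiquitin and ubiquitin-like genes passed among positions, nor did any of the 10 proteasome-associated and shuttle genes (limma).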

How the data were processed

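RNA of voxels was hybridised beside whole-brain RNA on 2-colour arrays, 59, 68 and 65 in datasets 1 to 3, over 68 positions. The authors deposited log2 ratios, which had been centred on each row's median (99.9% of row medians lay within 0.001 of 0); the RNA was a Trizol extract, per the labels, and how spots were scanned, background corrected and normalized is not given in the sources used here. Values at the floor of -6.64 (0.483%) were treated as not measured, a further 1.93% were missing, arrays were centred on their medians, 20 control rows were left out, and rows were named through the platform annotation and averaged by symbol. The members and all lists were chosen with earlier results of these data known.

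Differences among positions were tested with a moderated F (limma 3.58.1 in R 4.3.3) with the dataset as a block, and zones with limma on 1 difference per dataset (n = 3, two-sided), both Benjamini-Hochberg adjusted over 15608 genes. The scripts were tested on simulated data. Datasets are independent harvests, so their numbers pair the arrays. Deviations of arrays of 1 dataset from position means correlated at a median of 0.237, and those of different datasets at -0.124, over 7555 genes. Deviations from a mean over datasets cancel at each position, so the negative sign of the latter is set in part by the calculation. Members were named when they passed over all genes, had the smallest p of their role, were among the 3 smallest p in each direction of a zone comparison (the smallest for the sides), or had the most alike or opposed rows; others were named after their values were seen. Promoters came from RefSeq on GRCm38.p6.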

Additional observations from a re-analysis of the deposited data

How the results depend on the processing

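Among positions, 3 members passed as reported. The count was 6 with quantile normalization, 14 with array weights, 1 without the replicate block (2.34% of all genes), 1 without position A10 (4.58%; chosen after seeing the data) and 0 to 2 when 1 dataset was left out. For rows A and B against F and G, the count of 0 became 1 with rows measured on every array (2.18% of all genes) and 14 without the replicate block. For columns 5 to 7 it became 1 with quantile normalization (0.429% of all genes), 2 with rows measured on every array (2.85%) and 4 without the block. For the perimeter it became 1 with rows measured on every array (1.82%) and 12 without the block. Zone fits without the block take arrays of 1 dataset as replicates; 11.5%, 4.82% and 8.43% of all genes passed in those 3 comparisons. Leaving out a dataset gave 0 in every zone comparison. Over the named members and all alternatives, 393 values kept sign and side of the threshold, 15 no longer passed, 24 newly passed and 0 reversed. F values are among these, and as they are always positive they could not reverse. A value that kept its sign could still shrink toward 0, as that of Ube2ql1 did with floor values kept. The cause of each change was not tested. Dataset and dye cannot be told apart, and the number of arrays limits what these values can show.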
